A study of Mus musculus with 12 samples.

Results

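H3K9me2, the dimethylation of lysine 9 on histone H3, was examined over 9 genes that build the synaptic contact: Nrxn3, Nlgn1, Lrrtm3, Lrrtm4, Dlg2, Dlgap1, Dlgap2, Shank2 and Homer1. A region of chromatin belonged to a gene when it overlapped that gene, or, where no overlapped gene was named, when that gene had the closest transcription start. By this rule 117 of 33787 regions in the table comparing FAD with WT mice, and 152 of 43680 regions in the table comparing FAD-BIX with FAD mice, belonged to 8 of the 9 genes. Homer1 had no region in either table, so its H3K9me2 level was not measured here.

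The libraries came from prefrontal cortex of C57BL/6 mice aged 5 to 6 months. WT mice were wild type, FAD mice were a familial Alzheimer's disease model, and FAD-BIX mice were the same model given BIX01294, an inhibitor of the H3K9 methyltransferases EHMT1 and EHMT2. Each group had 2 mice, and each mouse gave 1 ChIP and 1 input library. The FAD alleles and their promoter, the sex of the mice, and the dose and duration of BIX01294 are not given in the sources used here. The tissue was bulk cortex, so fewer cells carrying the mark and less mark per cell cannot be told apart.

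Neurexins sit in the presynaptic membrane and reach across the cleft to neuroligins and to leucine-rich repeat proteins of the Lrrtm family on the postsynaptic side. Behind that contact lies the postsynaptic density, in which Dlg proteins anchor receptors, Dlgap proteins link Dlg to Shank, and Shank binds Homer. H3K9me2 is laid down by EHMT1 and EHMT2 and is a mark of silent chromatin. A region with more of it is commonly less transcribed, but no RNA was measured here.

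Most of the regions of these genes lay in introns, as follows for regions assigned mainly by overlap with long genes. Of the 117 regions in the FAD and WT table, 105 overlapped the gene itself, 105 had their centre in an annotated intron and 3 in an exon, beside 24.5% intronic in the whole table, which is mostly between genes. The 2 sets of 105 are not the same, since 3 intronic regions assigned to Lrrtm4 did not overlap it. Among the 152 regions of the FAD-BIX and FAD table, 139 overlapped the gene, and 138 were intronic. In the FAD and WT table the median distance to the closest annotated start was 59.7 kb, against 39.7 kb in the whole table. Even so, 4 of the 117 regions and 3 of the 152 lay within 500 bp of one. Among them were regions of Dlg2 at 227 and 335 bp, of Nrxn3 at 390 bp and of Nlgn1 at 489 bp. No gene is named for the starts near these regions, so they may not be starts of Dlg2, Nrxn3 or Nlgn1. The regions were short, with a median width of 319 bp in the first table and 309.5 bp in the second. The genes that had regions are long: Nrxn3 spans 1612 kb, Dlg2 1973 kb, Nlgn1 911 kb, Dlgap1 852 kb, Lrrtm4 791 kb, Dlgap2 758 kb and Shank2 448 kb, with Lrrtm3 the shortest at 162 kb. Per 100 kb of gene, the FAD and WT table held 2.47 regions overlapping Lrrtm3, 2.23 for Dlgap1, 2.05 for Nrxn3, 1.87 for Nlgn1, 1.19 for Dlgap2, 1.12 for Dlg2, 0.223 for Shank2 and 0 for Lrrtm4, beside a median of 1.19 over the 295 genes of at least 400 kb that had an overlapping region.

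Promoter windows, from 250 bases before to 50 bases after a RefSeq transcript start, were available for 7 of the 9 genes, Shank2 and Dlgap2 being the others. None of their 15 windows held a called region of either table, against 0.481% and 0.594% of all 32851 windows. The nearest region to each window of the 6 genes that had regions lay between 1.59 and 66.0 kb away. The starts within 500 bp of a region belong to the annotation in the deposited tables and are not among these windows. The 250 bases before 4 of the RefSeq starts are printed to show stretches without a called region that hold few or many CG dinucleotides. They run 5′ to 3′ on the gene's strand, with each CG in capitals (RefSeq, GRCm38.p6). CG reads the same on both strands, and 92.1% of all 250-base upstream windows held at least 1, with a median of 6.
Nrxn3, chr12:89812233-89812482, plus strand, 12 CG: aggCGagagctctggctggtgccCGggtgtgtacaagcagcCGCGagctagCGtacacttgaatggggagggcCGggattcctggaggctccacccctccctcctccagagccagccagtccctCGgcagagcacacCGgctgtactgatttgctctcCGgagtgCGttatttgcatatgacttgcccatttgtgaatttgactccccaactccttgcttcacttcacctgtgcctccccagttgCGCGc
Nlgn1, chr3:26331910-26332159, minus strand, 9 CG: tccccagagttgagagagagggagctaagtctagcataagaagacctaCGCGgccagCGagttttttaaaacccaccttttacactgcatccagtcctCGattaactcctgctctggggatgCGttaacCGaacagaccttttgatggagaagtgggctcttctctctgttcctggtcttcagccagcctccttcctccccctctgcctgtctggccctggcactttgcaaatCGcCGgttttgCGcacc
Dlg2, chr7:92062144-92062393, plus strand, 1 CG: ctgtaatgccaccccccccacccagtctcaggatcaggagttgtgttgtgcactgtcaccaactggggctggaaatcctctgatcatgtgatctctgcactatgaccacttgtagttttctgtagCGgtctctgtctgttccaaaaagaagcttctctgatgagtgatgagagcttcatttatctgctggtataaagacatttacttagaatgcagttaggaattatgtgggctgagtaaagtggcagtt
Homer1, chr13:93303507-93303756, plus strand, 21 CG: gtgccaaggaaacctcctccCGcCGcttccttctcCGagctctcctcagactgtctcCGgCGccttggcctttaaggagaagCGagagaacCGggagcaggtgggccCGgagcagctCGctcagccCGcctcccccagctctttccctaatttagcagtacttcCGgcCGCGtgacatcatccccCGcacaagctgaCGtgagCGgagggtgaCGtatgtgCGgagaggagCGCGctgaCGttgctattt

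Before the levels, the libraries themselves differed. ChIP libraries held 20.4 to 26.6 M reads and input libraries 13.9 to 23.8 M. The library labelled FAD 1 stood apart from FAD 2: its input reads over regions at Thy1 came to 0.627 RPM (reads scaled to the total of the library), against 24.1 in FAD 2 and 0.0842 and 0.692 in WT. Over the Thy1 regions of the other table it had 3.97 input RPM, against 366 in FAD 2 and 403 and 203 in FAD-BIX. Thy1 encodes a neuronal surface protein whose promoter is used in many brain transgenes. Over the 7 of 14 heart-muscle genes that had regions, the ChIP level was 82.4 RPM in the library labelled FAD 1, against 27.5 in FAD 2 and 14.5 and 11.8 in WT. With 8 of 14 genes in the other table, it was 89.4 RPM against 30.9 in FAD 2 and 20.5 and 19.9 in FAD-BIX. The input level over these genes did not stand apart. It was 8.43 RPM in the library labelled FAD 1, 11.1 in FAD 2 and 9.64 and 9.00 in WT. In the other table it was 10.9 RPM, against 12.1 in FAD 2 and 14.1 and 7.83 in FAD-BIX. Neuron markers had regions for 3 of 6 genes in the FAD and WT table, with summed ChIP levels of 4.25 and 9.28 RPM in FAD mice and 5.35 and 5.15 in WT mice. Astrocyte markers had regions for only 1 of 5 genes, with 3.01 and 5.10 RPM in FAD mice and 2.49 and 1.99 in WT mice. Both FAD mice were above both WT mice there, as for 33.2% of 4343 genes. Endothelial markers (3 of 4) ranged from 1.80 to 3.94 RPM in FAD mice and from 1.24 to 2.82 in WT mice, oligodendrocyte markers (1 of 5) from 0.192 to 0.694 over the 4 mice, and microglial markers had regions for 0 of 5. H3K9me2 reads are not expression, so these lists serve only to show where a library stands apart. At Thy1 the library labelled FAD 1 was therefore like the WT libraries and unlike the other library of its own group and the FAD-BIX libraries, and whether its label is right was not tested. Statements on both FAD mice rest on that label. The part these differences play in the results was not tested.

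Calling was done per library before the joining, so that a region is listed because at least 1 of the compared libraries was high there. Of the 117 regions in the FAD and WT table, 108 (92.3%) were called in a single ChIP library, against 94.9% of the whole table. For the FAD-BIX and FAD table the figure was 136 of 152 (89.5%), against 93.4%. FAD 2 called fewer of these genes' regions than of the whole table, 45.3% against 64.7%, and the library labelled FAD 1 more, 23.1% against 11.6%. WT 1 called 28.2% against 17.4%, and WT 2 called 12.8% against 12.2%. In the other table FAD-BIX 1 called 34.9% against 22.3%, FAD-BIX 2 called 25.7% against 26.0%, the library labelled FAD 1 called 17.8% against 8.94%, and FAD 2 called 34.2% against 50.2%.

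**Figure D1:**
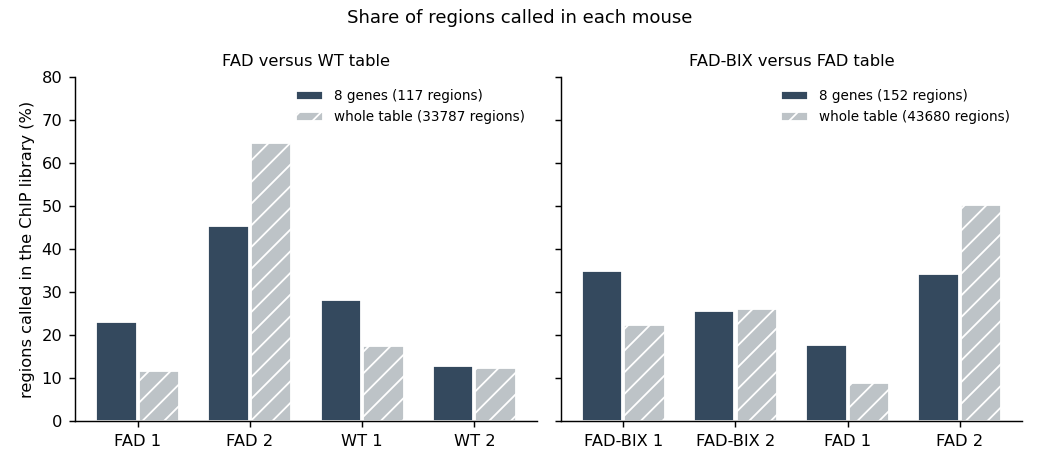
Share of regions called in each mouse's ChIP library (y axis, percent) for the 8 genes and for the whole table, with 1 panel per table. FAD 2 called 45.3% of the 8 genes' regions and 64.7% of all regions in the FAD and WT table, the highest share of the 4 mice in both sets.

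The level followed the library that made the call. In the 22 regions called only in the library labelled FAD 1, its level was 3.01 RPM per kb of region, while FAD 2 had 1.41 and the WT mice 1.34 and 1.24. In the 46 regions called only in FAD 2 it had 3.12, while the library labelled FAD 1 had 1.36 and the WT mice 1.11 and 1.26. The 29 regions called only in WT 1 showed 2.56 RPM per kb there and 0.964 to 1.12 elsewhere, and the 11 called only in WT 2 showed 2.56 there and 0.952 to 1.20 elsewhere. Among the regions of the FAD-BIX and FAD table the calling library had 2.80 RPM per kb in the 44 regions of FAD-BIX 1, 2.51 in the 31 of FAD-BIX 2, 2.95 in the 21 of the library labelled FAD 1 and 3.23 in the 40 of FAD 2. The calls chose the regions, and being called in 1 library alone also keeps the other libraries low, so these levels are a description.

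**Figure D2:**
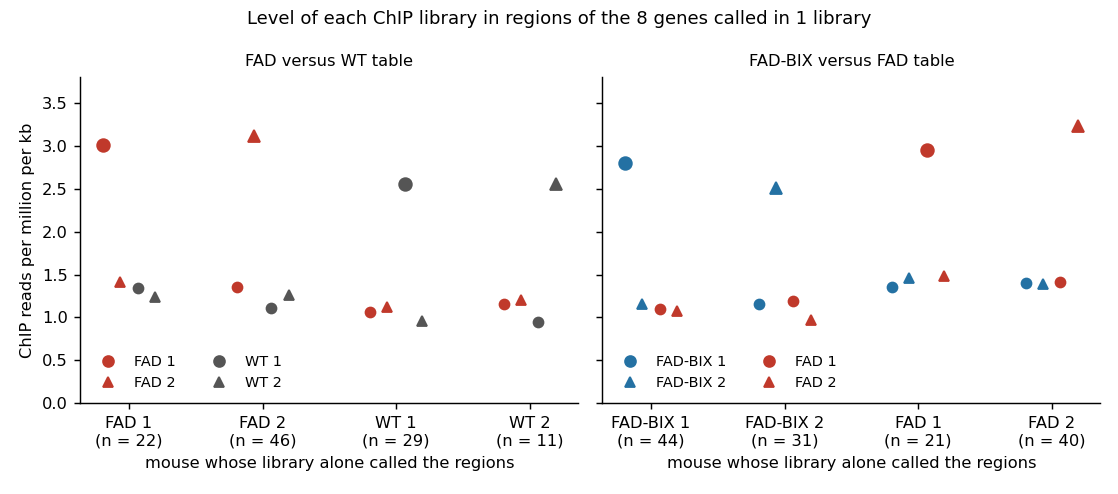
Summed ChIP level (y axis, RPM per kb) of each mouse in the regions of the 8 genes that 1 library alone called (x axis, the calling mouse), 1 panel per table. The calling library sits at 2.51 to 3.23 RPM per kb, above the other 3 libraries in every set.

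Nrxn3 encodes a neurexin, a presynaptic adhesion protein, and carried the most regions, 36 and 57. They were spread along the gene, with 9 in intron 14, 7 in intron 3 and 5 in intron 9 in the FAD and WT table. Its summed ChIP level there was 23.2 and 24.0 RPM in FAD mice and 20.1 and 15.5 in WT mice. Both FAD mice lay above both WT mice in RPM, as did 33.2% of the 4343 genes of that table. For the other comparison the levels were 35.5 and 34.1 RPM in FAD-BIX mice and 31.6 and 32.8 in FAD mice, so both FAD-BIX mice lay above both FAD mice, as for 7.86% of 4913 genes. The differences are within a narrow range, and the edgeR quasi-likelihood test gave log2 folds of -0.07 (SE 0.30, adjusted p = 0.979) and 0.31 (SE 0.23, adjusted p = 0.869). That test centres the folds on the bulk of the genes (TMM), and with library totals in place of it the Nrxn3 folds were 0.41 and 0.11, where the median of all genes was 0.61 and -0.30.

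Without the library labelled FAD 1, the Nrxn3 difference between FAD-BIX and FAD mice came to a log2 fold of 0.75 (SE 0.18, adjusted p = 0.0120 in edgeR), when 0.374% of all genes tested were called higher. Without FAD 2 it was -0.04 (adjusted p = 0.998). Both of these fits used TMM. With library totals the Nrxn3 log2 fold was 0.09 without the library labelled FAD 1 and 0.14 without FAD 2. A single remaining FAD library is assumed in all these fits to vary as the other group does. Over every alternative run for this gene and comparison the adjusted p ranged from 0.0120 to 1.00.

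The region of Nrxn3 with the smallest p in the FAD and WT table lay in intron 14 (chr12:89667059-89667536). It held 13 and 19 ChIP reads in FAD mice and 32 and 17 in WT mice, a log2 fold of -1.07 (SE 0.53, edgeR adjusted p = 0.857). The groups overlapped there. The corresponding region for FAD-BIX against FAD was in intron 18 (chr12:90221331-90221597), with 12 and 16 reads in FAD-BIX mice and 4 and 5 in FAD mice. Both FAD-BIX mice were higher, but the log2 fold of 2.02 (SE 0.99) had an adjusted p of 0.897 in edgeR. That region was called in FAD-BIX 2 alone, so the same library both chose it and entered the fold. It also passed the low-count filter only through the FAD-BIX mice, where it was high. The highest-level Nrxn3 region of that table spanned 1256 bp of intron 15 (chr12:90137411-90138667), was called in both FAD-BIX mice and in no FAD mouse, and held 59 and 51 reads against 37 and 48.

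Nlgn1 encodes neuroligin 1, the postsynaptic partner of neurexins at excitatory synapses. It had 17 and 20 regions. Its level in the FAD and WT table was 9.66 and 12.5 RPM in FAD mice and 11.7 and 11.7 in WT mice, so that the WT mice lay between the FAD mice. The log2 fold was -0.61 (SE 0.26, unadjusted p = 0.0395, adjusted p = 0.929 in edgeR). Without the library labelled FAD 1 it was -0.95 (unadjusted p = 0.00343, adjusted p = 0.218), and without FAD 2 it was -0.34 (adjusted p = 1.00). With library totals and all 4 libraries it was -0.08, and its adjusted p ranged from 0.218 to 1.00 over all alternatives. Its level in the other table was 17.5 and 13.05 RPM in FAD-BIX mice and 11.4 and 12.5 in FAD mice. Both FAD-BIX mice were above both FAD mice, as for 7.86% of 4913 genes. The log2 fold was 0.56 (SE 0.24, unadjusted p = 0.0333, adjusted p = 0.841).

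As for Nrxn3, the Nlgn1 value turned on which FAD library was kept, and on the scaling. With library totals its log2 fold of FAD-BIX over FAD was 0.29 without the library labelled FAD 1 and 0.42 without FAD 2. The values that follow are with TMM. Without the library labelled FAD 1 the log2 fold of FAD-BIX over FAD was 0.95 (SE 0.24, edgeR adjusted p = 0.0258), and without FAD 2 it was 0.23 (adjusted p = 0.998). Its adjusted p ranged from 0.0258 to 1.00 over all alternatives.

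The tables placed the Nlgn1 regions in different introns. Of the 17 in the FAD and WT table, 15 lay in intron 5, 1 in intron 2 and 1 in the last exon. Of the 20 in the FAD-BIX and FAD table, 9 lay in intron 5, 7 in intron 1 and 4 in intron 3. All 11 regions in introns 1 and 3 were called in FAD-BIX mice alone. Over all introns, 11 of the 20 Nlgn1 regions were called in FAD-BIX 1 alone and 4 in FAD-BIX 2 alone. In the whole table these were 8434 and 9735 of 43680, and 267 more were called in both FAD-BIX mice and no FAD mouse. The tables were joined from different libraries, so a region absent from 1 table was not counted in it. The Nlgn1 region with the smallest p was in intron 5 in both tables. In the FAD and WT table (chr3:25648417-25648818) it held 8 and 7 reads in FAD mice and 9 and 27 in WT mice, a log2 fold of -1.58 (SE 0.70, unadjusted p = 0.0470) that came from WT 2. In the FAD-BIX and FAD table (chr3:25678650-25679484) it held 42 and 18 reads in FAD-BIX mice and 15 and 11 in FAD mice, a log2 fold of 1.58 (SE 0.56, unadjusted p = 0.0107, adjusted p = 0.897 in edgeR). Without FAD-BIX 1 that fold was 0.78, and without FAD 2 it was 1.01. Of these regions, that of the FAD and WT table was called in WT 2 alone and the other in FAD-BIX 1 alone. The calling library thus both chose the region and entered its fold. The region of the FAD and WT table also passed the low-count filter only through the WT mice. The highest-level region of Nlgn1 in both tables was a 1052 bp stretch of intron 5 (chr3:25848947-25849999), with 34 and 60 reads in FAD mice, 39 and 28 in WT mice and 34 and 34 in FAD-BIX mice. FAD 2 was the highest library there.

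Lrrtm3 and Lrrtm4 encode postsynaptic leucine-rich repeat proteins that bind neurexins or heparan sulfate proteoglycans, and had 4 regions each in the FAD and WT table and 2 each in the other. The Lrrtm3 level was 2.21 and 1.78 RPM in FAD mice and 2.41 and 1.43 in WT mice, and the groups overlapped (log2 fold -0.39, SE 0.45, edgeR adjusted p = 0.934). It was 1.12 and 0.818 RPM in FAD-BIX mice and 1.36 and 1.63 in FAD mice, so that both FAD-BIX mice were lower, as for 19.8% of genes. The log2 fold was -0.39 (SE 0.49, adjusted p = 0.950). All Lrrtm3 regions were in its last intron. One of them (chr10:64029568-64029830) held 6 and 1 reads in FAD mice and 19 and 18 in WT mice, a log2 fold of -2.66 (SE 0.89, unadjusted p = 0.0133, adjusted p = 0.832 in edgeR). Both WT mice were above both FAD mice at this region, while the level summed over the gene overlapped. The region was called in WT 1 alone, so that library both chose it and entered the fold. It also passed the low-count filter only through the WT mice, where it was high, so its fold and p are a description. The fold was -4.78 without the library labelled FAD 1 and -1.63 without FAD 2.

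Lrrtm4 differed in position from the other genes. None of its regions overlapped its RefSeq span, and all were assigned by the closest start. Of these, 3 in the FAD and WT table and 1 in the other had their centre in an annotated intron, whose gene is not named. Its level was 1.92 and 3.32 RPM in FAD mice and 1.63 and 3.50 in WT mice, a wider gap within each group than between them (log2 fold -0.56, SE 0.38, edgeR adjusted p = 0.930). In the FAD-BIX and FAD table it was 1.42 and 1.45 RPM in FAD-BIX mice and 0.882 and 2.21 in FAD mice (log2 fold 0.25, SE 0.44, adjusted p = 0.965), with both FAD-BIX mice between the FAD mice. The region with the smallest p in the FAD and WT table (chr6:79978035-79978536) held 12 and 22 reads in FAD mice and 19 and 30 in WT mice. In the other table it was chr6:79920851-79921313, with 23 and 18 reads in FAD-BIX mice and 13 and 24 in FAD mice.

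Dlg2, also known as PSD-93, encodes a scaffold of the membrane-associated guanylate kinase family that anchors receptors and channels. It had 22 and 30 regions, nearly all intronic and most in introns 1 and 2. Its level was 11.3 and 17.4 RPM in FAD mice and 12.2 and 10.01 in WT mice, and 18.4 and 16.4 in FAD-BIX against 14.96 and 20.1 in FAD mice. The groups overlapped in both tables, with FAD 2 the highest in each. The log2 folds were -0.19 (SE 0.24, edgeR adjusted p = 0.934) and 0.24 (SE 0.21, adjusted p = 0.904). The Dlg2 region with the smallest p in the FAD and WT table (intron 2, chr7:91725870-91726276) held 5 and 14 reads in FAD mice and 25 and 11 in WT mice. In the other table it lay in intron 1 (chr7:91136097-91136457), with 18 and 10 reads in FAD-BIX mice and 4 and 2 in FAD mice (log2 fold 2.53, SE 1.13, unadjusted p = 0.0367, adjusted p = 0.897 in edgeR). The intron 1 region was called in FAD-BIX 1 alone, which both chose it and entered the fold. It also passed the low-count filter only through the FAD-BIX mice, where it was high.

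Dlgap1 and Dlgap2 encode the guanylate kinase-associated proteins that bridge Dlg and Shank. Dlgap1 had 24 and 28 regions, of which 11 and 10 were in intron 2. Its level was 11.7 and 20.3 RPM in FAD mice and 12.6 and 10.6 in WT mice (log2 fold -0.12, SE 0.23, edgeR adjusted p = 0.968). In the other table it was 17.9 and 13.8 RPM in FAD-BIX mice and 14.2 and 21.3 in FAD mice (log2 fold 0.10, SE 0.21, adjusted p = 0.965). FAD 2 was again the highest mouse in both, and the library labelled FAD 1 lay within the range of the other group in both. An intron 2 region (chr17:70132693-70132975) held 14 and 21 reads in FAD mice and 4 and 2 in WT mice, a log2 fold of 2.06 (SE 0.88, unadjusted p = 0.0418, adjusted p = 0.832 in edgeR). It was called in FAD 2 alone, so that library both chose the region and entered the fold. It also passed the low-count filter only through the FAD mice, where it was high.

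Dlgap2 had 9 and 12 regions and the highest level per kb of the 8 genes in all 4 mice of the FAD and WT table. Its level was 12.6 and 19.3 RPM in FAD mice and 9.35 and 11.9 in WT mice. Both FAD mice were above both WT mice, as for 33.2% of 4343 genes, and the log2 fold was 0.03 (SE 0.25, edgeR adjusted p = 0.996). In FAD-BIX mice it was 13.5 and 15.6 RPM against 14.4 and 19.6 in FAD mice, which overlapped (log2 fold 0.03, SE 0.22, adjusted p = 0.984). With library totals and without the library labelled FAD 1, the log2 folds of FAD over WT were 0.86 for Dlgap2 (adjusted p = 0.0404) and 0.81 for Dlgap1 (adjusted p = 0.0492), when 13.2% of all genes were called higher. With all 4 libraries under that scaling they were 0.59 and 0.47, and neither was called.

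The Dlgap2 region lay in intron 3 (chr8:14306622-14307470, GRCm38), 33.7 kb from the closest transcription start, and was called in all 4 libraries of both tables, as were 42 and 54 regions in all. Its ChIP level was 10.3 and 13.9 RPM per kb in FAD mice and 7.99 and 10.1 in WT mice, over 848 bp. Over 784 bp, the interval of the FAD-BIX table, the level was 10.2 and 10.8 in FAD-BIX mice and 11.2 and 15.02 in FAD mice. The input level was 1.89 and 2.42 RPM per kb in FAD mice and 2.18 and 3.54 in WT mice over the longer interval, and 2.43 and 2.93 in FAD-BIX mice over the shorter. ChIP over input was 5.46 and 5.73 in FAD against 3.66 and 2.85 in WT mice, and 4.19 and 3.70 in FAD-BIX against 5.46 and 5.93 in FAD mice. By this ratio both FAD mice lay above both mice of each other group, as it did by ChIP level alone. The authors' deposited table gives log2 folds of this ratio of 0.76 (p = 0.0780) and -0.52 (p = 0.0401), before adjustment. The region held 61.1% to 72.5% of all Dlgap2 ChIP reads in the FAD and WT table and 54.5% to 60.6% in the other. The edgeR log2 fold of its ChIP reads was -0.13 (SE 0.44, adjusted p = 1.00) in FAD over WT and -0.01 (SE 0.32, adjusted p = 1.00) in FAD-BIX over FAD, and 0.42 in FAD over WT with library totals. With the region left out, the Dlgap2 log2 fold was 0.33 (SE 0.27) and 0.17 (SE 0.25).

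**Figure D3:**
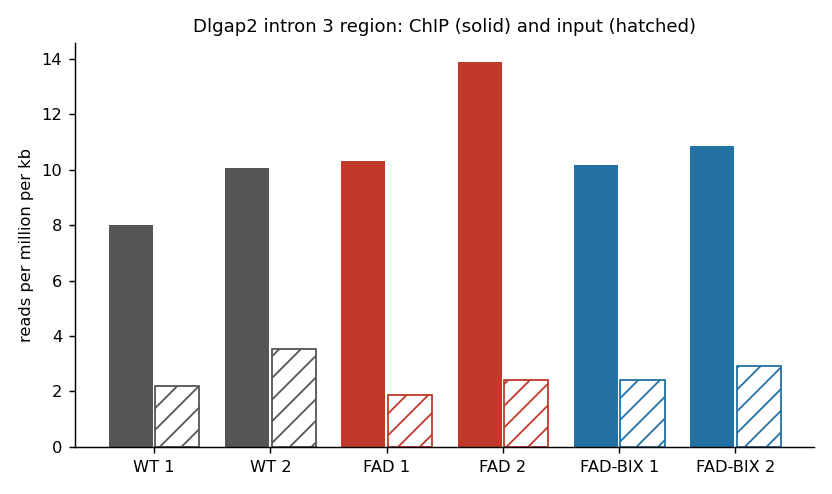
Level over the Dlgap2 intron 3 region (y axis, RPM per kb) in the ChIP (solid) and input (hatched) library of each of the 6 mice, over 848 bp for WT and FAD and 784 bp for FAD-BIX mice. ChIP ranged from 7.99 in WT 1 to 13.9 in FAD 2 and input from 1.89 to 3.54.

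Shank2, the scaffold that joins Dlgap proteins to Homer, had a single region, in intron 1 (chr7:144004013-144004288), 2222 bp from the closest start. It held 17 and 26 ChIP reads in FAD mice, 8 and 4 in WT mice and 13 and 7 in FAD-BIX mice, and 0 and 4, 12 and 7, and 8 and 3 input reads in the same order. In RPM both FAD mice were above both WT mice, as for 33.2% of 4343 genes. Both FAD-BIX mice were below both FAD mice, as for 19.8% of 4913 genes. In WT mice the ChIP level in RPM was below input. The log2 folds were 1.41 (SE 0.68, unadjusted p = 0.0635, adjusted p = 0.929 in edgeR) for FAD over WT and -0.71 (SE 0.69, adjusted p = 0.924) for FAD-BIX over FAD. A single library moved these folds: FAD over WT was 2.03 without WT 1, 0.92 without WT 2 and 1.34 (unadjusted p = 0.194) without the library labelled FAD 1. FAD-BIX over FAD was -1.29 without FAD-BIX 1 and -0.30 without FAD-BIX 2. ChIP over input in limma gave 3.61 (unadjusted p = 0.00369, adjusted p = 0.512) and -2.42 (adjusted p = 0.933), and the adjusted p of FAD over WT ranged from 0.0688 to 1.00 over all alternatives. The region was called in FAD 2 alone, so the same library both chose it and entered the fold. In the FAD and WT table it also passed the low-count filter through the FAD mice, where it was high.

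**Figure D4:**
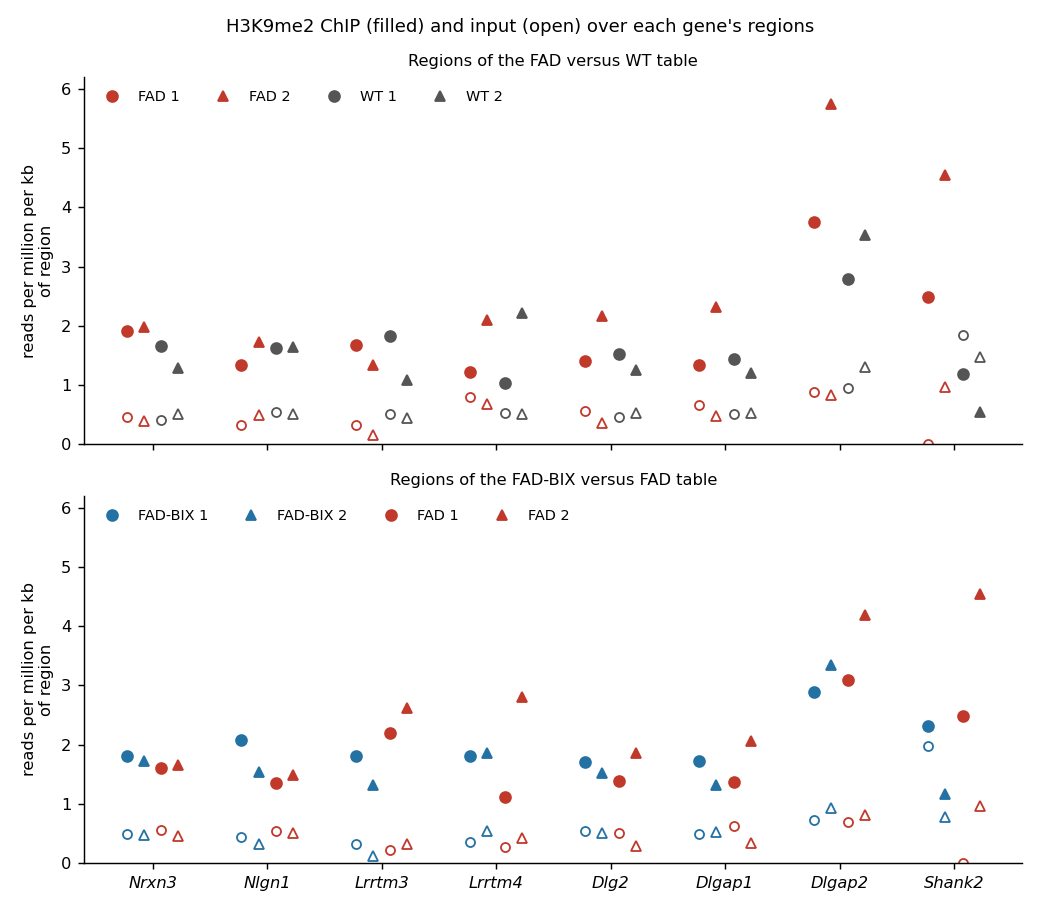
ChIP (filled) and input (open) level (y axis, RPM per kb of the gene's regions) of each mouse for the 8 genes, 1 panel per table. Shank2 reached 4.55 in FAD 2 and 0.547 in WT 2, while Dlgap2 was between 2.79 and 5.75 in the FAD and WT table.

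Across the genes, none of the 8 passed the test in either comparison. By edgeR with adjusted p under 0.05, 0 of 8 were called in FAD over WT, against 0% of 3795 genes tested, and 0 of 8 in FAD-BIX over FAD, against 0% of 4096. DESeq2 called 1 gene of the first comparison and 0 of the second, none a member. At an unadjusted p under 0.05, 0 were higher (1.29% of all genes) and 1 was lower (3.19%) in FAD over WT, and 1 was higher (2.95%) and 0 lower (2.00%) in FAD-BIX over FAD. Nlgn1 is that gene both times. With library totals the counts were 1 higher (Shank2, 2.32% of all genes) and 0 lower (0.211%), and 0 higher (0.146%) and 0 lower (1.34%). With 2 mice against 2, an exact two-sided permutation test of a single value cannot give a p below 0.333.

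The median log2 fold of the 8 genes was -0.16 in FAD over WT, beside 0.01 over all genes tested, with 2 above and 6 below 0. In FAD-BIX over FAD it was 0.17, beside 0.00, with 6 above and 2 below 0. Scaling to library totals turned both, to 0.39 with 7 above 0 (all genes 0.61) and to -0.13 with 2 above 0 (all genes -0.30). Under both scalings the 8 genes' median was below that of all genes in FAD over WT and above it in FAD-BIX over FAD. Both scalings used the same reads over the same regions and changed only how libraries were scaled, which shifts all genes nearly alike. The second scaling is therefore no separate support. FAD 2 called fewer of these genes' regions than of the whole table, 45.3% against 64.7%, and 34.2% against 50.2% in the other. A call goes with a high level in the calling library, so the choice of regions enters these medians. With regions called in FAD 2 alone left out, the genes left had log2 folds of -0.45 to 0.46 in FAD over WT. The middle one was Dlg2 at -0.09, beside a median of all genes of -0.03. In FAD-BIX over FAD the folds were -0.99 to 0.18. The middle one was Nrxn3 at 0.06, beside a median of all genes of 0.03, so both medians then lay nearer to those of all genes. The comparisons share the FAD libraries, so the opposite positions are not independent. In RPM, 3 of 8 genes (Nrxn3, Dlgap2 and Shank2) had both FAD mice above both WT mice and 0 had both below, against 33.2% and 3.91% of all genes. For FAD-BIX against FAD these were 2 (Nrxn3 and Nlgn1) above and 2 (Lrrtm3 and Shank2) below, against 7.86% and 19.8%.

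**Figure D5:**
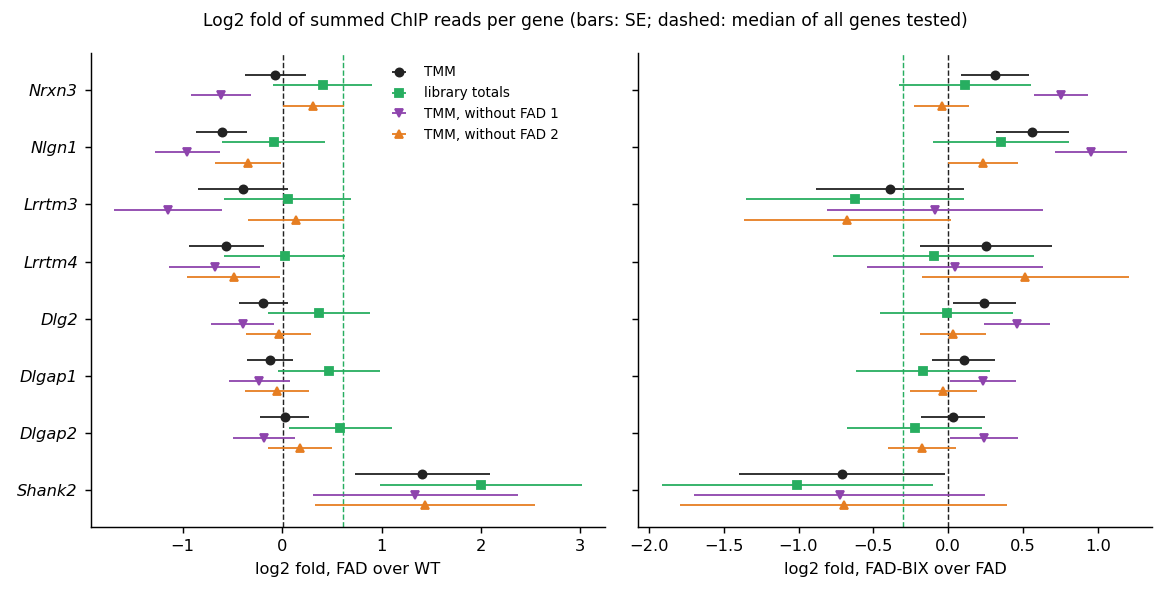
Log2 fold of the summed ChIP reads (x axis) for the 8 genes (y axis) with TMM and with library totals, with bars for the SE and dashed lines for the median of all genes tested. Shank2 has the widest SE, with folds of 1.41 (SE 0.68) and -0.71 (SE 0.69), and leaving out 1 library under TMM gave it 0.92 to 2.03 and -1.29 to -0.30.

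Region by region, 89 of the 117 regions passed the filter on low counts in the FAD and WT table and 0 were called by edgeR, as were 0% of 27778 regions of the table. At an unadjusted p under 0.05 there were 1 higher (0.918% of all regions) and 2 lower (4.97%). For FAD-BIX against FAD, 102 of 152 were tested, 0 were called (0% of 31055), and 2 were higher (3.93%) and 0 lower (1.18%) unadjusted. The median log2 fold of the regions tested was -0.16 (0.01 over the whole table) and 0.20 (0.03). The authors' deposited table listed 2 of the 117 regions at p under 0.05 for FAD against WT, and 902 of all 33787. The 2 regions were Nlgn1 chr3:25532471-25532777 (log2 fold 0.99) and Dlgap2 chr8:14509419-14509694 (2.79). For FAD-BIX against FAD it listed 3 of the 152, and 912 of all 43680. Its q-value was 1 in each. Those folds are of ChIP over input. The FAD input libraries held 0 and 0 reads at both the Nlgn1 and the Dlgap2 region. The WT inputs held 2 and 3 at the Nlgn1 region and 2 and 7 at the Dlgap2 region, so these ratios rest on very few input reads. In edgeR on ChIP reads the Nlgn1 region turned direction, with a log2 fold of -0.999. It held 11 and 9 reads in FAD mice and 9 and 23 in WT mice. The Dlgap2 region had a log2 fold of 0.60 in edgeR.

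Regions called in both mice of a group and neither of the other were few. For FAD against WT, 2 were called in both FAD mice and no WT mouse (1.36% of all regions) and 0 in both WT mice and no FAD mouse (0.252%). For FAD-BIX against FAD, 1 was called in both FAD-BIX mice and no FAD mouse (0.611%) and 2 in both FAD mice and no FAD-BIX mouse (0.870%). The 2 FAD regions were the same in both tables. The Nrxn3 region in intron 9 (chr12:89411374-89411693) held 26 and 18 reads in FAD mice, 12 and 12 in WT mice and 11 and 15 in FAD-BIX mice, with log2 folds of 0.54 (SE 0.58) and -0.40. The Dlg2 region in intron 11 (chr7:92082543-92082983) lay 227 bp before the closest start, for which no gene is named. It held 21 and 24 reads in FAD mice, 16 and 4 in WT mice and 10 and 16 in FAD-BIX mice, with log2 folds of 0.73 (SE 0.68) and -0.38. Both were higher in FAD mice than in either other group in reads, and neither was called by edgeR. They were picked for being called in both FAD mice and no other mouse, which favours higher FAD reads, so this is a description.

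The 3 groups could be set side by side only over the 75 regions that matched between the tables at 50% reciprocal overlap. Of these, 73 were called in a FAD, 7 in a WT and 14 in a FAD-BIX library, so the set is chosen on FAD libraries and its FAD levels are a description. Median levels were 1.16 and 1.34 RPM per kb in WT mice, 1.68 and 2.82 in FAD mice and 1.48 and 1.46 in FAD-BIX mice. In the 22 regions called in the library labelled FAD 1 and not in FAD 2, that library had 3.05 and FAD 2 had 1.40, beside 1.32 and 1.24 in WT mice and 1.40 and 1.45 in FAD-BIX mice. In the 48 called in FAD 2 and not in the library labelled FAD 1, FAD 2 had 3.15 and the other 1.26, beside 1.03 and 1.35 in WT mice and 1.49 and 1.44 in FAD-BIX mice. Both sets are defined by which FAD library made the call, so the gap between the FAD mice is part of the rule. Among the genes with most matched regions, Nrxn3 (26 regions) had medians of 1.44 and 1.37 in WT mice, 2.40 and 2.70 in FAD mice and 1.58 and 1.5005 in FAD-BIX mice. Dlg2 (16 regions) had 1.11 and 1.00 in WT mice, 1.30 and 2.83 in FAD mice and 1.18 and 1.40 in FAD-BIX mice. Dlgap1 (17 regions) had 0.891 and 1.30 in WT mice, 1.47 and 2.92 in FAD mice and 1.25 and 1.24 in FAD-BIX mice. Of these, 25 of the 26 Nrxn3, 15 of the 16 Dlg2 and all 17 Dlgap1 regions were called in a FAD library, so the FAD medians restate the calls.

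Of 64 other genes of synaptic adhesion and postsynaptic scaffolds, 20 had regions in each table, 183 and 276 in all. None of the 19 and 17 tested passed in edgeR. Unadjusted, 0 were higher (1.29% of all genes) and 2 lower (3.19%) in FAD over WT, with a median log2 fold of -0.18 beside 0.01 over all genes. In FAD-BIX over FAD, 2 were higher (2.95%) and 0 lower (2.00%), with a median of 0.30 beside -0.0009. Mdga2, which binds neuroligins and blocks their contact with neurexin, held 725 and 568 reads in FAD mice and 938 and 1150 in WT mice. Both WT mice were above both FAD mice, as in RPM for 3.91% of 4343 genes. The log2 fold was -0.98 (SE 0.31, unadjusted p = 0.0100, adjusted p = 0.929 in edgeR), and -0.53 with library totals. Slitrk5, a postsynaptic adhesion protein, overlapped between FAD and WT mice in RPM, with FAD 2 the highest and the library labelled FAD 1 the lowest. Its log2 folds were -0.66 (SE 0.28, adjusted p = 0.929, and -0.05 with library totals) and, in FAD-BIX over FAD, 0.48 (SE 0.22, adjusted p = 0.841, and 0.21 with library totals). Lin7a, a scaffold that partners Cask, held 79 and 169 reads in FAD-BIX mice and 81 and 79 in FAD mice, so its log2 fold of 0.95 (SE 0.32, unadjusted p = 0.00876, adjusted p = 0.841) came from FAD-BIX 2. The highest by p in FAD over WT were Il1rapl2 (log2 fold 1.00, adjusted p = 0.929) and Tanc1 (0.28, adjusted p = 0.973), and the lowest in FAD-BIX over FAD were Magi1 (-0.63, adjusted p = 0.950) and Il1rap (-0.20, adjusted p = 0.965).

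The genes whose ChIP pattern over the 4 libraries was most like that of the 8 genes summed were Dgkb, Mei4 and Fat3 in the FAD and WT table, with root mean square differences of 0.033, 0.042 and 0.043 in centred log2 CPM, among 657 candidates. In the FAD-BIX and FAD table they were Robo1, Slc9a9 and Pcdh15, at 0.027, 0.034 and 0.036 among 842. With 4 libraries each, these likenesses are descriptions.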

How the data were processed

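H3K9me2 ChIP-seq and input libraries of 6 mice (prefrontal cortex) were used. The submitters' processing notes name BWA 0.7.12, MACS2 2.1.0, Trimmomatic, FastQC and the build mm9, with no roles. Of the genes matched by symbol, 96.6% of 2295 and 96.3% of 2730, and every region of the 8 genes that overlapped its gene, lay on that gene in RefSeq GRCm38.p6, so coordinates are given as GRCm38. Coordinates are printed as deposited, and their base (0 or 1) is not stated.

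Per the file headers, the authors deposited counts of reads per region and library, RPM (counts plus 1, times a library constant, from which the library total was recovered), the fold enrichment of ChIP over input as a ratio, the log2 fold change and p-value of each region. Counts were summed per gene, with 1 row kept per region, from regions that named a gene (37.6% and 37.9% of each table). Here RPM is counts over the recovered total, without the added 1.

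The test was the quasi-likelihood one of edgeR 4.0.16 (R 4.3.3) on ChIP counts, with TMM, the default low-count filter and no pairing term, adjusted by Benjamini-Hochberg over all genes or regions of a table, at 0.05. The SE is the absolute log2 fold over the square root of F. Alternatives were library totals, DESeq2 1.42.0 and its size factors, no filter, a pairing of replicate numbers, limma 3.58.1 on ChIP over input, other region sets and each library left out. Nothing says that the mice of a group are from separate litters, so p-values measure the spread between these samples. Steps were tested on simulated data.

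Named regions are, per gene and table, the one with the smallest p and the one with the highest mean level, plus those called in both mice of 1 group, chosen after their values were seen. Of the other synaptic genes, the 2 of lowest p per direction and table are named, and as most alike the 3 genes with at least 5 regions and the smallest root mean square difference. The members and lists were chosen with earlier results of these data known.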

Additional observations from a re-analysis of the deposited data

How the results depend on the processing

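The choice of scaling and of libraries turned the direction of part of these small differences. Over settings that kept all libraries, the 8 genes gave 151 values, of which 127 kept direction and side of the threshold and 24 turned direction; leaving out 1 library gave 128 values, of which 86 kept direction and side, 39 turned and 3 were newly called in the same direction. In all 4 were called, since Dlgap1 in FAD over WT both turned and was called. The regions named gave 154 and 174 values, of which 8 and 16 turned. The cause was not tested. Regions that cleared the filter held few reads, which limits what can be seen.

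Genes called in FAD over WT numbered 0, but 2 with library totals, 1 with DESeq2 and 13 without regions called in FAD ChIP 2 alone, and regions 2 with library totals, 7 in regions called in 2 or more libraries and 8 without those of FAD ChIP 2 alone. In FAD-BIX over FAD, genes called were 3 with library totals, 12 with no filter and 6 without FAD ChIP 2 alone, and regions 4, 17 and 7. Leaving out 1 library gave 0 to 576 and 0 to 101 genes, and 0 to 119 and 0 to 26 regions. At an unadjusted p under 0.05, TMM gave 49 genes higher and 121 lower in FAD over WT and library totals 88 and 8, and in FAD-BIX over FAD 121 and 82 against 6 and 55. For regions these were 255 and 1381 against 641 and 69, and 1221 and 365 against 137 and 456.

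With the replicate block, 2 genes were called in each comparison, none of them 1 of the 8 genes. Nothing in the labels pairs the replicate numbers, and same-numbered deviations correlated at 0.061 and -0.045 over genes and 0.057 and -0.040 over regions. The block turned the Dlgap2 intron 3 region in FAD-BIX over FAD to 0.0047, as DESeq2's size factors (0.0048) and DESeq2 (0.0063) did.

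Log2 folds of FAD over WT that turned with library totals were Nrxn3 0.41, Lrrtm3 0.06, Lrrtm4 0.024, Dlg2 0.37 and Dlgap1 0.47, and with ChIP over input Nrxn3 0.54, Nlgn1 0.28, Lrrtm3 1.00, Dlg2 0.49 and Dlgap1 0.29. Regions called in 2 or more libraries gave Nrxn3 0.030 and Dlgap2 -0.0010, and leaving out those of FAD ChIP 2 alone gave Nrxn3 0.22. The Dlgap2 region gave 0.42, 0.77, 0.042 and 0.42 under these settings in the same order. In FAD-BIX over FAD, library totals gave Lrrtm4 -0.10, Dlg2 -0.0100, Dlgap1 -0.17 and Dlgap2 -0.22, and ChIP over input -0.27, -0.48, -0.31 and -0.35. Regions called in 2 or more libraries gave Nlgn1 -0.41 and Dlgap2 -0.10, leaving out FAD ChIP 2 alone gave Dlgap2 -0.39, and ChIP over input gave the Lrrtm4 region -0.069.

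Leaving out 1 library, under either scaling, gave ranges in FAD over WT of -0.61 to 0.61 for Nrxn3, -0.95 to 0.089 for Nlgn1, -1.15 to 0.48 for Lrrtm3, -1.03 to 0.68 for Lrrtm4, -0.40 to 0.65 for Dlg2, -0.27 to 0.81 for Dlgap1 and -0.18 to 0.86 for Dlgap2. In FAD-BIX over FAD they were -0.044 to 0.75 for Nrxn3, -0.62 to 0.70 for Lrrtm4, -0.21 to 0.46 for Dlg2, -0.43 to 0.27 for Dlgap1 and -0.43 to 0.24 for Dlgap2. Regions of FAD over WT ranged from -1.57 to 0.16 (Nrxn3, intron 14), -1.16 to 0.15 (Lrrtm4), -2.02 to 0.065 (Dlg2, intron 2), -0.45 to 0.62 (Dlgap2), -0.20 to 1.14 (Nrxn3, intron 9) and -0.056 to 2.69 (Dlg2, intron 11). In FAD-BIX over FAD they ranged from -1.32 to 0.47 (Lrrtm3), -0.25 to 0.89 (Lrrtm4), -0.52 to 0.16 (Dlgap2) and -0.99 to 0.17 (Nrxn3, intron 9).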
